A study of Rattus norvegicus with 6 samples.

Results

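tRF00041773, a fragment of a tRNA, took the most reads of the tRFs analysed in HFD libraries from the perirenal fat of rats, while tRF00041780 had more in LFD libraries. The results below are on the tRFs numbered around it, from tRF00041700 to tRF00041899. These 200 numbers are 0.305% of the 65535 tRFs in the table. The members were chosen by their number and by their counts, a minimum of 10 counts that 3 or more of the 6 libraries had to reach, and the range itself was picked from the abundance of tRF00041773. 69 of the 200 numbers met the count minimum, 117 had counts but fewer than that, and 14 had 0 counts in each library. The rats were male Sprague Dawley rats that received the HFD (high fat diet, 40% fat) or the LFD (low fat diet, called normal chow in the labels) for 100 days from 6 weeks of age, 8 rats per diet, and 3 libraries per diet were sequenced from RNA of 15 to 40 nt. The labels also name the heart as the source and 8 weeks as the age, and fat is used here because the labels and the paper both give it. Whether each library came from a separate rat is not given in the sources used here, so the p-values measure the spread between libraries. Total counts ranged from 1322760 (LFD 1) to 12180060 (HFD 1), and a value from LFD 1 is the least precise.

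tRNAs carry amino acids to the ribosome and are among the most abundant RNAs of a cell. Nucleases such as angiogenin cut them in or near their loops, often under stress, and the pieces are called tRFs. Some tRFs bind Argonaute proteins and silence mRNAs in the manner of miRNAs, and others act on translation. The table gives each tRF a number and no sequence, length or parent tRNA, so no role can be assigned to any member, and whether neighbouring numbers share a parent was not tested. For the same reason levels are given as reads and not per length.

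The 69 members took up most of the reads of nearly every library. Their share was 65.7%, 71.5% and 69.9% of all tRF counts in HFD 1, HFD 2 and HFD 3, against 64.3%, 55.6% and 41.3% in LFD 1, LFD 2 and LFD 3. The HFD libraries thus lay above the LFD libraries, by a small margin for LFD 1. The mean was 69.05% ± 3.01 in HFD, against 53.8% ± 11.6 in LFD (SD, n = 3 each). No test was made because the range was picked for its abundance. The members other than tRF00041773 ran the other way, with 22.8%, 17.6% and 28.7% of the counts in the HFD libraries, against 38.1%, 40.4% and 31.8% in the LFD libraries. When the reads of tRF00041773 were also left out of the totals, the same members held 39.9%, 38.1% and 48.8% in HFD and 51.6%, 47.7% and 35.1% in LFD, and the diets overlapped. The share of any other member thus depends on how many reads tRF00041773 takes up. The fold changes below were computed with TMM, a scaling that limits the weight of the most abundant tRFs.

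Within the block, 3 members held most reads, between 83.1% in LFD 3 and 97.8% in HFD 2. tRF00041773 made up 65.3%, 75.5% and 59.0% of the block in HFD 1, HFD 2 and HFD 3, against 40.8%, 27.3% and 23.1% in LFD 1, LFD 2 and LFD 3. The share of tRF00041780 was 24.6%, 21.1% and 30.2% in the HFD libraries, against 42.2%, 47.1% and 45.8% in the LFD libraries. tRF00041802 made up 6.76%, 1.18% and 7.88% in the HFD libraries, against 12.7%, 20.2% and 14.3% in the LFD libraries. The leading member was thus tRF00041773 in each HFD library and tRF00041780 in each LFD library, and the diets did not overlap in any of the 3 splits. The splits depend on each other. With tRF00041773 left out the mean share of tRF00041780 was higher in HFD, at 76.9%, against 65.2% in LFD. LFD 1 then lay slightly above HFD 1, so the diets overlapped. They also overlapped for tRF00041802, where LFD 3 lay below HFD 1 and HFD 3. In LFD 3, tRF00041824 held 12.5% of the block, close to tRF00041802. Together these members held 97.2% ± 0.529 of the block in HFD, against 91.1% ± 6.94 in LFD (SD, n = 3 each). The next most abundant members were tRF00041824, tRF00041743, tRF00041820, tRF00041764, tRF00041731, tRF00041887 and tRF00041794. With them the 10 most abundant held 99.7% ± 0.104 of the block in HFD, against 99.2% ± 0.250 in LFD (SD, n = 3 each). The other 59 members held at most 1.06% of the block in any library. 52 of the 69 members had a mean under 100 CPM, where CPM is the count divided by the library total and multiplied by 1000000, and the lowest mean was 1.47 CPM.

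In edgeR's quasi-likelihood test of all 3200 tRFs that met the count minimum, 0 of the 69 members passed an adjusted p of 0.05, as did 0% of all tRFs tested. The smallest adjusted p of the whole test was 0.168, and 5 members had it. At an unadjusted p under 0.05, 11 members (15.9%) were higher in HFD, beside 10.9% of all tRFs tested, and 11 (15.9%) were lower, beside 9.47% of all. DESeq2 called 11 members (15.9%) higher at an adjusted p of 0.05, beside 9.22% of all tRFs tested, and 11 (15.9%) lower, beside 10.4% of all. The 22 members were the same in both tools. The shares of the members lie above the background by a few members in each direction, and the members were chosen with results of these data known. The median log2 fold change (HFD over LFD) was −0.34 over the members and −0.36 over all tRFs tested, which moved to −0.84 and −0.996 with library size only and to 0.27 and 0.11 with upper quartile scaling. The DESeq2 count was 1 of 68 members without HFD 2 and 9 of 63 without LFD 3, for which the share over all tRFs is not given.

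Along the numbers, the fold changes of the abundant members passed from positive to negative, with tRF00041887 at the end positive again. tRF00041731, the lowest in number of the 10, had 512, 519 and 353 CPM in the HFD libraries, against 1289, 191 and 60.1 CPM in the LFD libraries. tRF00041743 had 0.546%, 0.667% and 0.477% of the counts in the HFD libraries, against 0.951%, 0.151% and 0.0998% in the LFD libraries. In both tRFs LFD 1 was the highest of the 6 libraries and the other LFD libraries were the lowest, so the diets overlapped by share, and for tRF00041743 they no longer did after TMM scaling. The log2 fold changes were 0.91 for tRF00041731 (standard error 0.89, edgeR adjusted p = 0.594) and 1.496 for tRF00041743 (standard error 0.73, edgeR adjusted p = 0.286). Without LFD 1 they were 2.58 and 2.76, and with library size only they were −0.15 and 0.49.

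tRF00041764 had 0.551%, 0.582% and 0.469% of the counts in the HFD libraries, against 0.444%, 0.119% and 0.0623% in the LFD libraries. All HFD libraries lay above all LFD libraries, with LFD 1 close to HFD 3. Its log2 fold change was 2.29 (standard error 0.65, edgeR adjusted p = 0.168), which is 2.65 above the median tRF, and 1.36 with library size only. tRF00041773 itself had 42.9%, 54.0% and 41.3% in the HFD libraries, against 26.2%, 15.2% and 9.53% in the LFD libraries. Counting error is small beside these differences, as the exact 95% binomial interval in LFD 1 ran from 26.2% to 26.3%. The interval covers counting error only, as no molecular identifiers are described and PCR copies of a molecule count as separate reads. The log2 fold change of tRF00041773 was 2.21 (standard error 0.43, edgeR adjusted p = 0.168), and it ranged from 1.44 to 2.68 over 24 alternatives. Its adjusted p ranged from 1.72e-12 (DESeq2) to 0.593 (edgeR) over them, and 7 of the 24 called it. With all libraries the DESeq2 adjusted p was 2.62e-10, and without HFD 2 it was 0.237. A ratio of 2 members is the same under any scaling. The ratio of tRF00041773 to tRF00041764 overlapped between the diets, with 77.9, 92.7 and 87.9 in the HFD libraries, against 59.1, 128 and 153 in the LFD libraries. The ratio of tRF00041764 to tRF00041743 did not overlap, with 1.01, 0.873 and 0.983 in the HFD libraries, against 0.467, 0.786 and 0.624 in the LFD libraries.

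tRF00041780 had 16.2%, 15.1% and 21.1% of the counts in the HFD libraries, against 27.1%, 26.2% and 18.9% in the LFD libraries. HFD 3 lay above LFD 3, so the diets overlapped, and the log2 fold change of 0.15 (standard error 0.41, edgeR adjusted p = 0.848) turned to −0.46 with library size only. tRF00041794, with 274, 63.3 and 502 CPM in the HFD libraries, against 524, 574 and 417 CPM in the LFD libraries, gave −0.34 on the log2 scale (standard error 0.76, edgeR adjusted p = 0.805), which turned to 0.23 without HFD 2. tRF00041802 had 4.44%, 0.845% and 5.51% of the counts in the HFD libraries, against 8.14%, 11.2% and 5.89% in the LFD libraries. Its shares did not overlap, while its TMM-scaled values did. The log2 fold change of tRF00041802 was −0.70 (standard error 0.65, edgeR adjusted p = 0.579), and −0.14 without HFD 2. None of these 3 differences passed the test against the spread between libraries.

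tRF00041820 had 0.404%, 0.0203% and 0.498% of the counts in the HFD libraries, against 0.216%, 0.573% and 1.14% in the LFD libraries. HFD 2 was far below the rest and the diets overlapped, and the log2 fold change was −0.85 (standard error 1.11, edgeR adjusted p = 0.693), or 0.25 without LFD 3. tRF00041824 had 0.212%, 0.0286% and 0.257% of the counts in the HFD libraries, against 0.597%, 1.57% and 5.17% in the LFD libraries. Here all HFD libraries lay below all LFD libraries, and LFD 3 alone held most of the LFD level. Its log2 fold change was −3.71 (standard error 1.17, edgeR adjusted p = 0.174), and −2.08 without LFD 3. The ratio of tRF00041824 to tRF00041820, which scaling leaves as it is, was 0.525, 1.41 and 0.517 in the HFD libraries, against 2.76, 2.74 and 4.52 in the LFD libraries, with no overlap. tRF00041887, the highest in number of the 10, had 776, 722 and 86.2 CPM in the HFD libraries, against 593, 248 and 132 CPM in the LFD libraries. HFD 3 was the lowest of the 6 libraries, and its log2 fold change of 1.57 (standard error 0.88, edgeR adjusted p = 0.356) rests on HFD libraries that lie far apart.

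The 11 members that were higher in HFD at an unadjusted p under 0.05 had log2 fold changes from 1.58 to 2.46, and each had at least 10 counts in every library. Beside tRF00041773 and tRF00041764, the members with the smallest p whose diets did not overlap were tRF00041745, tRF00041701, tRF00041877 and tRF00041867. tRF00041745 had 171, 176 and 156 CPM in the HFD libraries, against 96.8, 52.5 and 31.2 CPM in the LFD libraries. Its HFD values were close together and its LFD values fanned out below them, with a log2 fold change of 2.25 (standard error 0.64, edgeR adjusted p = 0.168). tRF00041701 had 95.7, 46.5 and 47.5 CPM in the HFD libraries, against 31.0, 18.3 and 8.63 CPM in the LFD libraries. The log2 fold change of tRF00041701 was 2.46 (standard error 0.71, edgeR adjusted p = 0.168), the largest of the 11. tRF00041877 had 93.1, 97.8 and 73.2 CPM in the HFD libraries, against 60.5, 29.5 and 15.0 CPM in the LFD libraries. tRF00041867 had 36.6, 38.2 and 39.5 CPM in the HFD libraries, against 24.2, 12.7 and 7.09 CPM in the LFD libraries. In each of these 4 members, LFD 1 was the LFD library nearest to HFD and LFD 3 the farthest. The log2 fold changes of tRF00041877 and tRF00041867 were 2.15 and 2.16 (standard errors 0.68 and 0.69, edgeR adjusted p = 0.175 for both), and 1.34 and 1.39 with library size only. On the higher side, 1 of 69 members had an unadjusted p under 0.05 with library size only, beside 123 of the 3200 tRFs tested. With library size computed without tRF00041773 it was 4 of 69, beside 224 of 3200. Without LFD 2 it was 1 of 64, beside 161 of 2736, and without LFD 3 it was 4 of 63, beside 193 of 2710.

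The 11 members on the lower side had larger fold changes, mostly at low counts. Their log2 fold changes ran from −5.07 to −3.26, 2 of the 11 had at least 10 counts in every library, and 10 of the 11 were highest in LFD 3, which held over 50% of their summed LFD level in those 10. The most abundant was tRF00041824, described above. tRF00041827 had 31.5, 7.32 and 16.2 CPM in the HFD libraries, against 285, 725 and 1239 CPM in the LFD libraries, so that the diets lay far apart. Its log2 fold change was −5.07 (standard error 1.05, edgeR adjusted p = 0.168), the largest of any member in size, and −4.09 without LFD 3. Over 24 alternatives the adjusted p of tRF00041827 ranged from 5.07e-11 to 0.593. It was the sole member that DESeq2 called with each of the 6 libraries left out in turn, and the sole member that edgeR called without a count minimum (adjusted p = 0.0245).

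Other members on this side had no overlap and few reads. tRF00041812 had 5.67, 0.641 and 4.87 CPM in the HFD libraries, against 13.6, 124 and 103 CPM in the LFD libraries. tRF00041804 had 19, 1 and 7 counts in the HFD libraries, or 1.56, 0.0915 and 1.22 CPM, against 14, 57 and 291 counts in the LFD libraries, or 10.6, 12.3 and 29.9 CPM. These 2 members differ in the LFD libraries, where LFD 1 was far below the others for tRF00041812 and close to LFD 2 for tRF00041804. tRF00041821 had 39, 5 and 3 counts in the HFD libraries, or 3.20, 0.458 and 0.522 CPM, against 10, 102 and 428 counts in the LFD libraries, or 7.56, 22.0 and 44.0 CPM. tRF00041845 had 24, 5 and 8 counts in the HFD libraries, or 1.97, 0.458 and 1.39 CPM, against 13, 43 and 277 counts in the LFD libraries, or 9.83, 9.26 and 28.5 CPM. Counts this low in HFD make the size of the fold uncertain. The log2 fold changes were −4.14 for tRF00041812 (standard error 1.24), −3.91 for tRF00041804 (standard error 1.17), −3.86 for tRF00041821 (standard error 1.22) and −3.34 for tRF00041845 (standard error 1.02), with edgeR adjusted p from 0.172 to 0.175. Without LFD 3 they were −3.60, −2.87, −2.68 and −2.15.

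Below 0 were the log2 fold changes of 39 of the 69 members (56.5%), beside 58.3% of all tRFs tested. Stretches of numbers were bounded after the values were seen, where the sign changed, so their signs are a description. The 33 members up to tRF00041780 had 20 positive and 13 negative log2 fold changes, with a median of 0.15. The 19 members from tRF00041781 to tRF00041850 were all negative, in part by the choice of bounds, with a median of −1.71, and held 9 of the 11 members of the lower side. The 17 members from tRF00041851 on had 10 positive and 7 negative values, with a median of 0.31. In the middle stretch, 17 of the 19 members were lowest in HFD 2 and 11 were highest in LFD 3, and the part of these libraries in the result was not tested. Without HFD 2, 14 of the 19 were negative (median −1.04), and without LFD 3, 15 of the 17 still tested were negative (median −1.17). With upper quartile scaling 15 of the 19 were negative (median −1.03), and with library size only all 19 were (median −1.99). Over all 69 members, 41 (59.4%) were lowest in HFD 2, beside 31.1% of all tRFs tested.

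A second order appeared within runs of consecutive numbers. The members form 9 runs of 3, 3 runs of 4 and 8 runs of 2, and 14 stand alone. In the runs of 3, the first member had a log2 fold change between −0.70 and 2.46 (median 2.16), the second between −1.51 and 1.58 (median 0.21) and the member after it between −3.91 and 0.60 (median −0.64). In all 9 the value was lower at each step, beside 89.6% of the 299 runs of 3 over all tRFs tested. For tRF00041745, tRF00041746 and tRF00041747, for example, the log2 fold changes were 2.25, 0.14 and −0.64, and for tRF00041877, tRF00041878 and tRF00041879 they were 2.15, 0.22 and −1.02. tRF00041773 heads such a run, followed by tRF00041774 with 0.11 and tRF00041775 with −1.03, and so does tRF00041802 with −0.70, followed by tRF00041803 with −1.51 and tRF00041804 with −3.91. Of the 11 members higher in HFD at an unadjusted p under 0.05, 8 (72.7%) were the first of a run and 0 came after the second place. The same order was seen over all tRFs tested, where 50.9% of the 348 such tRFs were the first of a run and 10.6% came after the second place. Whatever their p, 29.0% of the 69 members were the first of a run and 21.7% came after the second place. For all tRFs tested these were 23.0% and 21.2%.

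Of the 35 pairs of consecutive members, 33 had the lower log2 fold change at the higher number, beside 85.3% of the 1415 such pairs over all tRFs tested. The exceptions were the pairs of tRF00041755 with tRF00041756 and of tRF00041886 with tRF00041887, whose first members had 79 and 223 counts over the 6 libraries. Low counts were not particular to them, as tRF00041740 and tRF00041741 kept the order with 65 and 193 counts. The step is therefore found over the whole table, and pairs in a run share members. In 30 of the 35 pairs the higher number had fewer counts, beside 54.3% over all.

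The ratio of the 2 counts of a pair does not depend on the scaling. In 18 of the 35 pairs the count of the higher number relative to the lower was smaller in every HFD library than in any LFD library, beside 37.7% over all pairs. In 0 of the 35 it was larger in every HFD library, beside 2.61% over all. tRF00041746 relative to tRF00041745 was 0.311, 0.266 and 0.400 in the HFD libraries, against 1.02, 1.45 and 1.82 in the LFD libraries. The second member thus had fewer reads than the first in HFD and more in LFD. tRF00041734 and tRF00041735 did the same, with ratios of 0.405, 0.300 and 0.537 in the HFD libraries, against 1.11, 1.91 and 1.92 in the LFD libraries. In runs that begin with a highly abundant member the ratio was small throughout, as for tRF00041821 relative to tRF00041820, with 0.000793, 0.00226 and 0.000105 in the HFD libraries, against 0.00350, 0.00383 and 0.00385 in the LFD libraries.

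Over a whole run of 3, the third member relative to the first was lower in every HFD library in 8 of the 9 runs, beside 65.9% of the 299 runs over all tRFs tested, and higher in 0, beside 1% of all. In the run that starts at tRF00041701, the third had 9.43%, 1.97% and 15.8% of the counts of the first in the HFD libraries, against 22.0%, 64.7% and 35.7% in the LFD libraries. In the run that starts at tRF00041877 it had 5.29%, 0.936% and 9.50% in the HFD libraries, against 21.3%, 52.6% and 58.9% in the LFD libraries. HFD 2 was the lowest and LFD 1 the LFD library nearest to HFD in both runs. The exception was the run of tRF00041867, with 11.7%, 8.15% and 15.9% in the HFD libraries, against 9.38%, 59.3% and 39.1% in the LFD libraries, where LFD 1 lay within the HFD range.

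Counted by share, 8 members (11.6%) had their HFD libraries above all LFD libraries, beside 7.94% of all tRFs tested. Another 19 (27.5%) had them below, beside 19.3% of all. With TMM-scaled CPM the counts were 14 higher (20.3%), beside 15.9% of all, and 9 lower (13.0%), beside 6.94% of all. The balance between higher and lower thus changes with the scaling, in the members as in the whole table. The 47 members outside the 22 had log2 fold changes from −1.71 to 1.70.

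The member tRF00041741 was just inside the count minimum, with 10, 0 and 2 counts in HFD, against 1, 30 and 150 in LFD, as was tRF00041751 with 10, 0 and 15 in HFD, against 3, 2 and 26 in LFD. Just outside were tRF00041790, with 26, 1 and 6 counts in HFD, against 2, 9 and 37 in LFD, and tRF00041744, with 34, 18 and 8 in HFD, against 6, 3 and 1 in LFD. A count of 0 in HFD 2 allows up to 0.275 CPM, taken as 3 counts of the total and not from the exact interval. tRF00041741 is 1 of the 11 lower members, and its 150 counts in LFD 3 are most of its reads. All 69 members reached the minimum in at least 1 library of each diet, so 0 were included through a single diet, and 49 reached it in all 6.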

How the data were processed

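Small RNA of 15 to 40 nt from fat of HFD and LFD rats was sequenced by the authors on an Illumina instrument. The authors deposited raw counts, as whole numbers that were not normalized. The submitters' processing notes name the build Rnor_5.0. How reads were aligned and assigned, and with which tRNA annotation, is not given in the sources used here. Reads of near-identical fragments may have been split between numbers. The table ends at number 65535, and higher numbers were not analysed here, so totals and shares leave them out.

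Counts were divided by column totals (CPM or percent). All 3200 tRFs that reached 10 counts in 3 or more libraries were fitted with edgeR 4.0.16 (quasi-likelihood, TMM, Benjamini-Hochberg) in R 4.3.3. The standard error is the fold change divided by the square root of F. Alternatives were other scalings, DESeq2 1.42.0, limma 3.58.1 (prior count of 1), other count minimums, a replicate block, libraries thinned to 1322760 counts, and each library left out in turn. DESeq2 with a library left out or thinned, and the runs of consecutive numbers with their alternatives, were added after the data were seen. Intervals are exact (Clopper-Pearson). Python 3.11.15 was used for the rest. A ratio with 0 in both counts was not called.

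The members, lists and rules were chosen with earlier results of these data known. The tRFs named are the 10 most abundant members, up to 6 per direction of smallest p without overlap of shares, 2 on each side of the count minimum, and examples of runs chosen after their values were seen. No pathway list or marker could be matched to numbered tRFs.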

Additional observations from a re-analysis of the deposited data

How the results depend on the processing

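At an adjusted p of 0.05, limma called 0 members. So did edgeR with each other scaling, a minimum of 50 counts or 10 in all 6 libraries, thinning, or any library left out (0 to 0). The number was 1 without a count minimum and 22 at an unadjusted p under 0.05. DESeq2 called 22 of 69 members, and 13 of 56 after thinning. It called 18 of 62 without HFD 1, 1 of 68 without HFD 2 and 14 of 68 without HFD 3. It called 24 of 68 without LFD 1, 12 of 64 without LFD 2 and 9 of 63 without LFD 3. The share over all tRFs is given for the 22 only, so the rest are no result about the members. Why the counts changed was not tested.

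A fit with a replicate block called 0 members. In it 4 were higher and 5 lower at an unadjusted p under 0.05, beside 154 and 84 of the 3200 tRFs tested. The main fit had 11 and 11, beside 348 and 303. Deviations of same-numbered libraries correlated at −0.400, −0.296 and −0.168 across tRFs. Whether these libraries belong together was not tested. No other fit with a block was made.

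Counts over all tRFs tested stand in brackets here. At an unadjusted p under 0.05 the members lower in HFD were 3 of 51 with a minimum of 50 counts (111 of 1235). They were 2 of 49 with 10 in all 6 libraries (86 of 1130) and 7 of 56 after thinning (133 of 1357). Left-out libraries gave 5 of 68 without HFD 2 (82 of 2823), 7 of 68 without HFD 3 (196 of 2864) and 7 of 63 without LFD 3 (124 of 2710). The members higher in HFD were 1 of 69 with library size only (123 of 3200) and 4 of 69 with library size without tRF00041773 (224 of 3200). They were 1 of 64 without LFD 2 (161 of 2736) and 4 of 63 without LFD 3 (193 of 2710). By DESeq2 they were 5 of 68 without HFD 2 (141 of 2823) and 17 of 68 without LFD 1 (599 of 3081).

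The block share in HFD was 86.5% with TMM-scaled totals and 42.3% without tRF00041773. Without it tRF00041780 held 76.9% of the block in HFD and 65.2% in LFD, while tRF00041802 held 14.5% in HFD and 22.6% in LFD.

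Members without overlap of shares, lower in HFD, were 10 with tRF00041773 out of the totals and 12 with at least 10 counts in all 6 libraries. With TMM they were 9 (13.0%), beside 6.94% of all tRFs tested. Members higher in HFD were 14 with TMM (20.3%), beside 15.9% of all. Leaving out 1 library gave 8 to 14 higher (13 without HFD 3, 14 without LFD 1) and 19 to 31 lower (31 without LFD 3). With 1 library fewer, no overlap is easier to reach for any tRF. Of these settings the share over all tRFs is given for TMM only, so the other counts are no result about the members.

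Of 21 named members' log2 fold changes, 13 of 477 values under alternatives changed sign, in 5 members. Leaving out 1 library gave −1.07 to 0.39 for tRF00041751, −0.95 to 0.23 for tRF00041794 and −1.30 to 0.25 for tRF00041820. tRF00041731 was −0.15 and tRF00041780 −0.46 with library size only. DESeq2 without LFD 2 gave −0.0685 for tRF00041780. tRF00041794 was 0.23 with the upper quartile, 0.0313 without a count minimum, and 0.23 (edgeR) and 0.19 (DESeq2) without HFD 2. tRF00041751 was 0.27, 0.0426, 0.39 and 0.29 under the same settings. tRF00041820 was 0.25 (edgeR) and 0.14 (DESeq2) without LFD 3.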

Other observations

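The 131 numbers of the range below the count minimum held 417, 133 and 132 counts in HFD 1, HFD 2 and HFD 3, against 59, 375 and 2009 in LFD 1, LFD 2 and LFD 3. As a share of the library this was 0.00342%, 0.00122% and 0.00230% in HFD and 0.00446%, 0.00807% and 0.0207% in LFD. LFD 3 held 64.3% of all reads of these rare numbers. A number with high counts in fewer than 3 libraries falls here by the rule. Over the whole table, tRFs that met the minimum held 99.61%, 99.67% and 99.53% in HFD, against 98.66%, 99.14% and 99.06% in LFD. Reads below the minimum thus took a larger share in LFD over the whole table too.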
